A study of Mus musculus with 6 samples.

Results

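The testis-specific serine kinases Tssk1, Tssk2, Tssk3, Tssk4, Tssk5 and Tssk6, with Tsks, a substrate of Tssk1 and Tssk2, are 7 genes. They were picked by symbol from the 53700 in the count tables. All 7 were among the 21902 genes with enough reads to be tested. The study asked whether loss of the X-linked gene Msl3 alters spermatogenesis, and sequenced total RNA of whole testes from 6 male mice at postnatal day 45. In 3 mice the labels give the wild-type Msl3 genotype (WT), and in 3 a conditional knockout of a floxed Msl3 allele (cKO). All 6 share the strain entry Msl3em1Forni/C57BL/6J. The recombinase line, the cells in which it acts and the deleted exons are not given in the sources used here.

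The TSSK proteins form a small branch of the AMPK-related kinases, and their mRNAs are known from spermatids, the haploid germ cells that shape the sperm head and tail. Tssk1 and Tssk2 phosphorylate Tsks, and mice that lack both kinases are infertile. Tssk6 acts in the condensation of spermatid chromatin, needs the co-chaperone Tsacc and Hsp90 for its activity, and is also required for male fertility. Tssk3 is another kinase needed for sperm formation, and Tssk4 phosphorylates the outer dense fibre protein Odf2 in the tail.

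The 6 libraries held 56991431 to 73766444 reads assigned to genes. Msl3 itself stood at 16.9 ± 1.68 CPM (reads relative to the scaled total of the library; SD, n = 3) in WT and 15.6 ± 0.649 (SD, n = 3) in cKO, with overlapping libraries and an edgeR adjusted p of 0.551. The count takes in every exon, so it does not test the deletion, and cKO below means the libraries labelled so. Spermatid mRNAs were present in each library: 15 markers of elongating spermatids, Prm2 and Prm1 among them, summed to 21796 to 26694 CPM, and none of the 15 was too low to be tested. In whole tissue, fewer cells of a type and less RNA per cell cannot be told apart.

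Tssk1 and Tssk2 are neighbours on chromosome 16 of mm10, both on the plus strand and both with a single exon. Tssk1 (ENSMUSG00000041566) spans 17894223 to 17897922 and Tssk2 (ENSMUSG00000045521) 17898637 to 17900024, 714 bases apart. Tssk6 (ENSMUSG00000047654, chromosome 8, 69902184 to 69903518, plus strand) also has a single exon. Tssk3 (ENSMUSG00000000411, chromosome 4, 129489014 to 129491022, minus strand) has 2 exons. Tssk4 (ENSMUSG00000007591, chromosome 14, 55650184 to 55652539, plus strand) has 3 to 4 exons in its 7 annotated transcripts. Tssk5 (ENSMUSG00000060794, chromosome 15, 76371952 to 76374938, minus strand) has up to 8. Tsks (ENSMUSG00000059891, chromosome 7, 44943204 to 44958035, plus strand) has up to 11.

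The coding sequences of the 6 kinases diverge enough for their reads to be told apart, except in part of the neighbouring pair. Tssk1 and Tssk2 matched at 82.0% of 1048 aligned coding bases. The other 14 pairs matched at 61.4% to 66.9%, and the longest run shared by any of them was 14 bases. The longest run shared by Tssk1 and Tssk2 was 113 bases, more than the read length of 75, so a read that lies inside it matches both genes and cannot be given to one. It covers coding positions 371 to 483 of each, counted from the first base of the start codon. It is shown here with 20 flanking bases on each side and the shared run in capitals, because it is the longest place where this family's counts lose reads. For Tssk3 and Tssk6 the aligned part is given, with capitals for the bases identical to Tssk1.
Tssk1, chr16:17894703-17894855, plus strand: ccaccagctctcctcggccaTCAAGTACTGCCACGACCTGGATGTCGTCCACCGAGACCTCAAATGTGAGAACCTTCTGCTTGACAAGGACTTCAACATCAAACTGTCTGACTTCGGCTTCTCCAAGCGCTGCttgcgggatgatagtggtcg
Tssk2, chr16:17899085-17899237, plus strand: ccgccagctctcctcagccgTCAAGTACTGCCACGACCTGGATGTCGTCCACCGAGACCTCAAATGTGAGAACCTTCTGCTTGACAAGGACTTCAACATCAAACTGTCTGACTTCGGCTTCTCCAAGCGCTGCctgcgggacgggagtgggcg
Tssk3, chr4:129489406-129489513, minus strand: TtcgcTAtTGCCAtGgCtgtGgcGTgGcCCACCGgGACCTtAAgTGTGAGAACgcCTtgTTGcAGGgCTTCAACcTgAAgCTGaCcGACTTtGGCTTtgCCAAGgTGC
Tssk6, chr8:69902675-69902791, plus strand: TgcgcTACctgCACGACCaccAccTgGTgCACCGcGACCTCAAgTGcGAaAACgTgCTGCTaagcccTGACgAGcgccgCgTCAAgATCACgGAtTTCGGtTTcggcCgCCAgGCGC

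Over this stretch 76 of the 108 bases of Tssk3 and 74 of the 117 of Tssk6 were identical to Tssk1. Bases opposite a gap in Tssk1 are counted here as not identical, whereas the percentages of the pairs leave gaps out. Of all read-length stretches, 75 of the 3626 in Tssk1 (2.07%) and 75 of the 1314 in Tssk2 (5.71%) occurred in the other gene's transcript. Neither share depends on the group. Tssk3, Tssk4, Tssk5 and Tsks shared no such stretch with another gene. In Tssk6, 301 of 1261 stretches (23.9%) lay opposite the exons of Ndufa13, a gene of respiratory complex I on the other strand. The strand of the read decides these, as it does for 63 exonic bases that Tssk1 shares with Dgcr2: unstranded counting kept only 60.0% to 62.7% of the Tssk6 reads in the 6 libraries. For the other members, reads in the orientation that was not counted made up at most 1.59% of the stranded reads, the highest share being that of Tssk1 in cKO 2.

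Per length, Tssk6 and Tssk2 were the most abundant members and Tssk5 by far the least. Levels per length are given as CPM per kilobase of annotated exon (RPKM). Tssk6 stood at 414 ± 18.5 RPKM (SD, n = 3) in WT and 344 ± 57.6 in cKO, and Tssk2 at 400.0 ± 23.3 and 356 ± 35.0. These neighbours in the order did not differ beyond their spread: Tssk6 was above Tssk2 in 5 libraries and below it in cKO 2. Tsks came next in every library, at 263 ± 18.6 and 264 ± 22.9, and then Tssk3, at 152 ± 7.24 and 148 ± 10.8. Tssk1 followed at 94.8 ± 5.12 and 83.6 ± 2.43, and then Tssk4 at 55.8 ± 0.852 and 54.7 ± 3.37. Tssk5 had 5.99 ± 1.12 and 5.97 ± 0.684.

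On this scale Tssk6 and Tssk2 ranked 83 and 87 among the 16362 coding genes tested, Tssk1 677 and Tssk4 1162, whereas Tssk5 ranked 6454. The place of Tssk1 rests on the length of its exon. GENCODE gives it 3700 bases and RefSeq 1451. With the RefSeq length its WT level was 242 ± 13.1 RPKM (SD, n = 3), above Tssk3 and among the values of Tsks. This does not touch the main comparison of one gene between the groups. It does enter a correction for GC content and transcript length, given below, which used the 3700 bases.

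**Figure D1:**
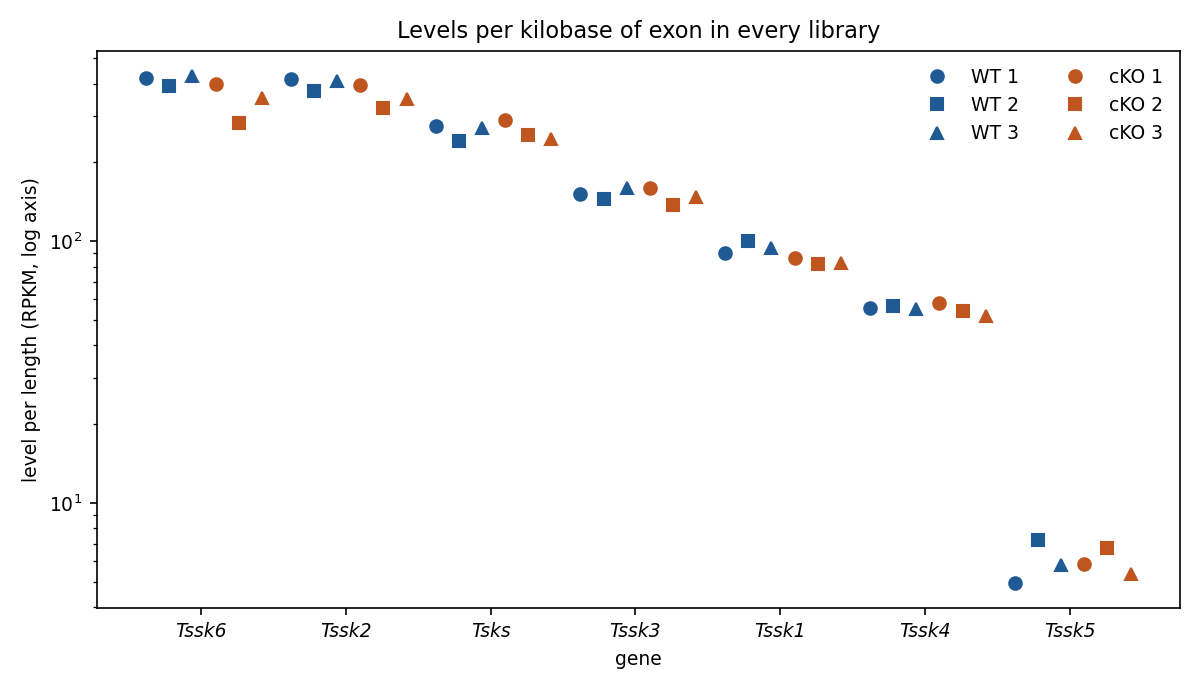
Level per length (RPKM, log axis) of each gene in the 3 WT and 3 cKO libraries, 1 point a library, with GENCODE exon lengths and genes ordered by mean. Tssk6 and Tssk2 lie together at the top with 283 to 427 RPKM, and Tssk5 lies apart at the bottom with 4.97 to 7.20.

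None of the 7 genes passed the edgeR quasi-likelihood test of cKO against WT at an adjusted p of 0.05, taken over all genes tested; 4 of the 21902 genes did (0.0183%), 2 in each direction (0.00913%). Without adjustment, 2 of the 7 had a p under 0.05, Tssk1 and Tssk6, both lower in cKO, where 13.9% of all tested genes had such a p, 6.54% with a lower and 7.33% with a higher value. The groups did not overlap in 1 of the 7, Tssk1, lower in cKO, against 18.9% of all tested genes (8.85% lower). The median log2 fold change of the 7 was -0.04, beside 0.0031 over all tested genes, and 6 of the 7 values were below 0 (49.3% of all tested genes). The median of the 7 was -0.12, -0.072 and -0.046 without WT replicate 1, 2 and 3. It was -0.096, -0.095 and -0.034 without cKO replicate 1, 2 and 3, and -0.014 with the correction for GC content and transcript length. The number below 0 ran from 4 without cKO replicate 3 to 7, as with library totals alone. Nothing particular to the 7 genes is read from these counts.

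Tssk1 and Tssk2, the kinases that phosphorylate Tsks, both had a lower mean in cKO, by a margin that did not pass the adjusted test. Tssk1 had 333, 370.5 and 349 CPM in WT 1, 2 and 3 and 319.8, 304 and 304 CPM in cKO 1, 2 and 3. All 3 cKO values lay below all 3 WT values, and the gap between the nearest was 333 against 319.8. The means were 351 ± 18.9 CPM in WT and 309 ± 8.99 CPM in cKO (SD, n = 3 each). In the edgeR fit this was a difference of -0.18 in log2 (SE 0.067, p 0.0190, adjusted p 0.306). Its cKO level was 88.2% of WT, with 95% limits of 79.8% and 97.6%.

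Tssk2 had 580.1, 519 and 567 CPM in WT and 546, 449.6 and 486 CPM in cKO. The groups overlapped, since cKO 1 was above WT 2. Its edgeR estimate was -0.17 in log2 (SE 0.081, p 0.0592, adjusted p 0.379), and the 95% limits of the cKO level ran from 78.7% to 101% of WT. In the main fit the difference of Tssk2 was close to that of Tssk1 in size. With the correction for GC content and transcript length Tssk2 was at -0.12 and Tssk1 at -0.24. The pair did not keep a fixed ratio: Tssk2 per Tssk1, in RPKM, was 4.65, 3.73 and 4.33 in WT and 4.55, 3.94 and 4.26 in cKO. WT 2, with the highest Tssk1 and the lowest WT value of Tssk2, had the lowest ratio. The means of the ratio were 4.24 in WT and 4.25 in cKO, and its size rests on the GENCODE exon length of Tssk1.

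Tsks, the substrate of this pair, had nearly the same mean in both groups, 508 ± 35.9 CPM in WT and 511 ± 44.3 CPM in cKO (SD, n = 3 each). It had 535, 467 and 523 CPM in WT and 561.3, 494 and 477 CPM in cKO, with the highest value in cKO 1 and the lowest in WT 2. The log2 fold change was 0.0079 (SE 0.080; edgeR adjusted p 0.975), and the 95% limits of its cKO level were 89.1% and 114% of WT. Its sign turned under 6 of the 16 alternative settings, so it has no direction.

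Tssk6, the kinase of chromatin condensation, had the largest difference of the 7 and also the widest spread among the cKO mice. It had 563, 524 and 570.4 CPM in WT and 531, 378 and 469 CPM in cKO. cKO 1 lay within the WT range and cKO 2 far below it, so the groups overlapped. The means were 552 ± 24.7 CPM in WT and 459 ± 76.9 CPM in cKO (SD, n = 3 each). The edgeR estimate was -0.27 in log2 (SE 0.10, p 0.0252, adjusted p 0.313). The cKO level was 83.2% of WT, with 95% limits of 71.1% and 97.3%.

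The Tssk6 value turned on 2 libraries. Without cKO replicate 1 the log2 fold change was -0.38 and the gene passed the test (edgeR adjusted p 0.0394), in a fit that called 628 genes in place of 4. Without cKO replicate 2 it was -0.14 (adjusted p 0.600). It also passed with the low-count filter taken away (edgeR adjusted p 0.0260), a setting that called 757 genes.

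Tssk3, Tssk4 and Tssk5 gave differences near 0. Tssk3 had 194, 186 and 205 CPM in WT and 204, 176 and 188 CPM in cKO, a log2 fold change of -0.04 (SE 0.073; edgeR adjusted p 0.851). Tssk4, the kinase of Odf2, had 95.1, 97.5 and 94.9 CPM in WT and 100.1, 92.8 and 88.7 CPM in cKO, a log2 fold change of -0.03 (SE 0.068; edgeR adjusted p 0.881). In Tssk3 the lowest cKO value was below the WT values and the highest within them, and in Tssk4 the cKO values reached both above and below the WT values. The 95% limits of the cKO level were 87.1% and 109% of WT for Tssk3 and 88.4% and 108% for Tssk4.

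Tssk5 had only 606 to 968 reads in a library, against 5180 or more for each of the others. Its levels were 10.3, 14.9 and 12.02 CPM in WT and 12.1, 13.9 and 11.1 CPM in cKO, and WT 1 and WT 2 bracketed the whole cKO group. The log2 fold change was -0.0056 (SE 0.13; edgeR adjusted p 0.990), and the limits of 81.9% and 121% were the widest of the 7 relative to the WT level. Leaving out WT replicate 2 moved it to 0.15 and leaving out WT replicate 1 to -0.12.

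**Figure D2:**
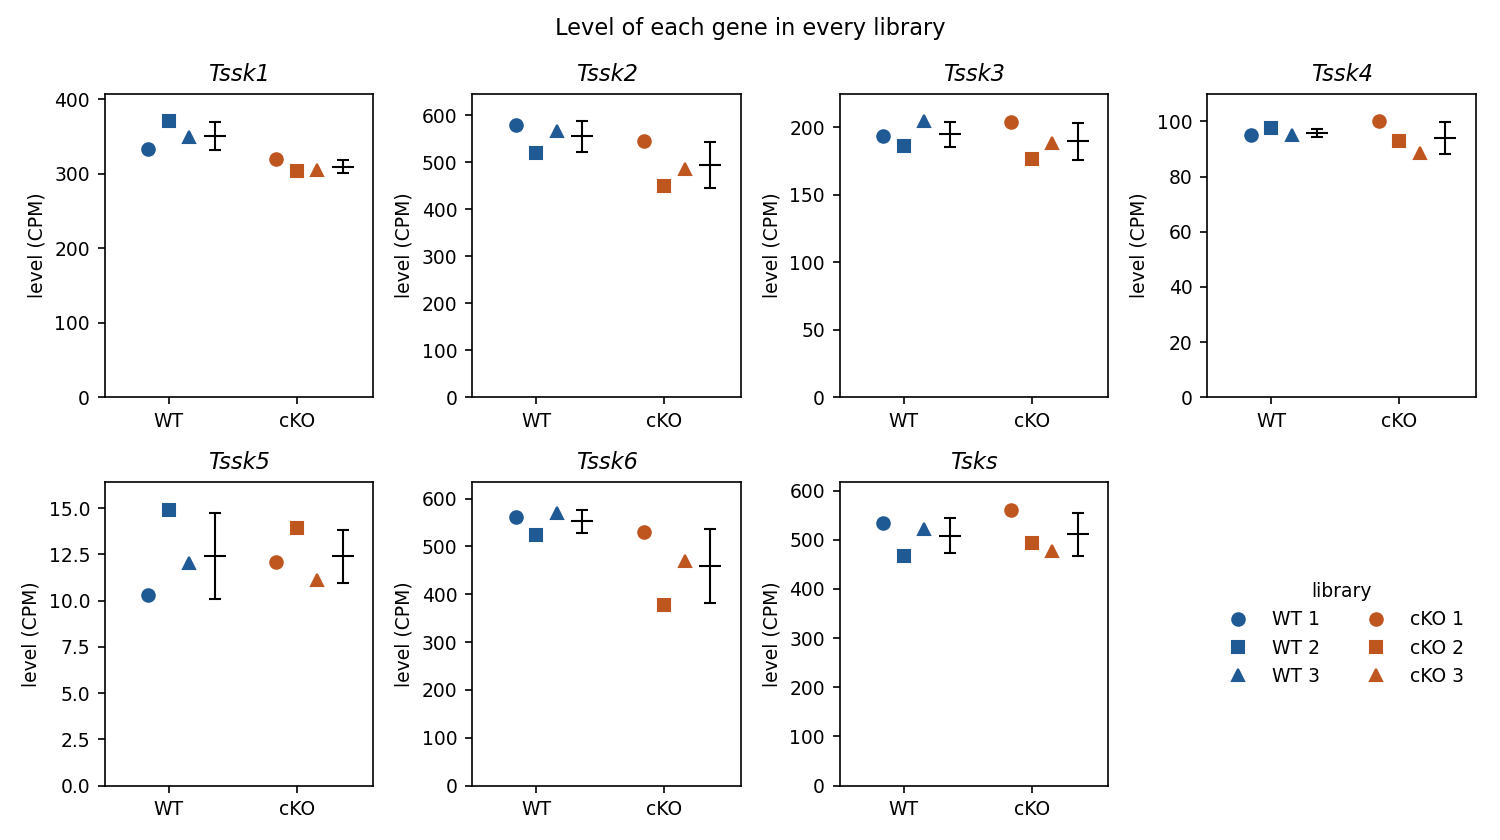
Level of each gene in CPM, on axes that start at 0, with 1 point for each of 3 WT and 3 cKO libraries and the mean ± SD beside them. Tssk1 is the 1 gene whose cKO points (304 to 319.8) all lie below its WT points (333 to 370.5); the low Tssk6 point in cKO is cKO 2, at 378.

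**Figure D3:**
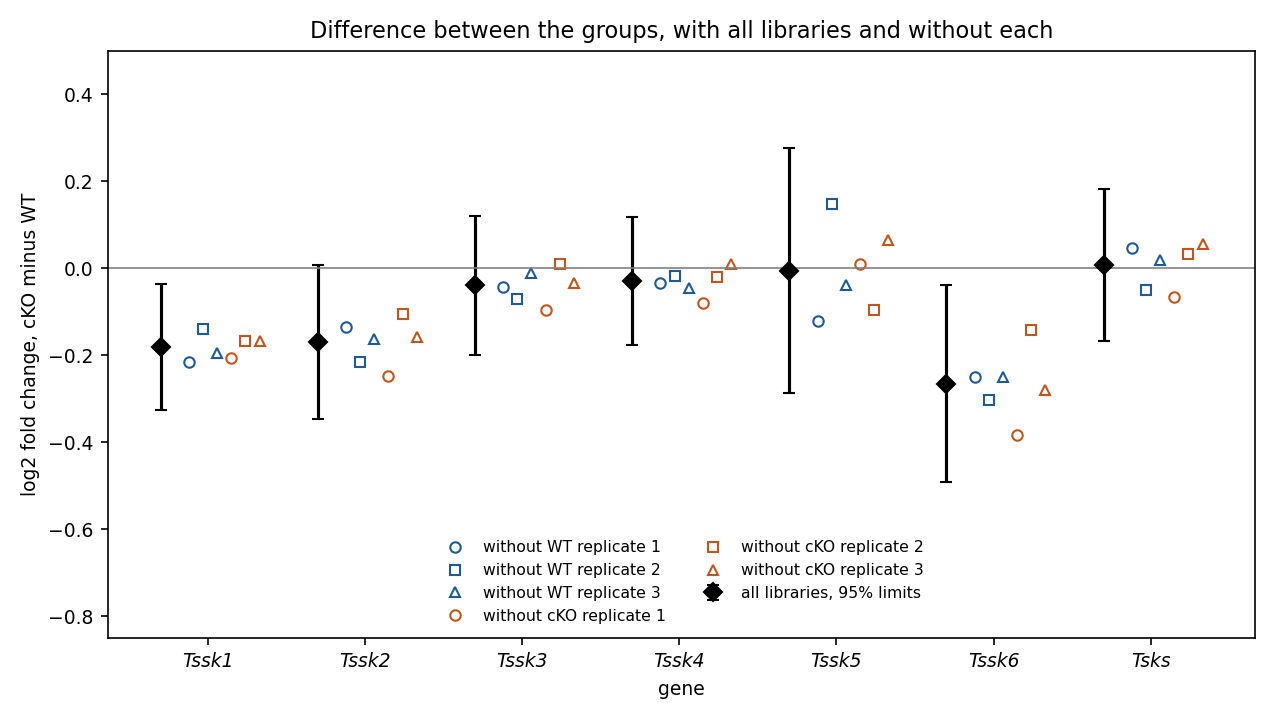
Log2 fold change of cKO relative to WT for each gene: black diamonds are all 6 libraries with 95% limits, open symbols the fits that each leave out 1 library. Tssk1, Tssk2 and Tssk6 stay below 0 throughout, and Tssk6 ranges from -0.38 without cKO replicate 1 to -0.14 without cKO replicate 2.

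Each kinase was then set against Tsks within the same library, a ratio in which the scaling of the library cancels. Exon lengths were those of GENCODE, on which the size of each ratio rests. Tssk2 per Tsks, in RPKM, was 1.51, 1.55 and 1.51 in WT and 1.36, 1.27 and 1.42 in cKO. Tssk6 per Tsks was 1.53, 1.63 and 1.58 in WT and 1.37, 1.11 and 1.42 in cKO. In both, every cKO library lay below every WT library. Of all tested genes, 7.89% had ratios to Tsks without overlap, and 3.99% had lower ones in cKO. Tssk1 per Tsks overlapped, at 0.326, 0.415 and 0.349 in WT and 0.298, 0.322 and 0.334 in cKO, and so did the ratios of Tssk3, Tssk4 and Tssk5. These ratios share the same Tsks values, so they are not independent of each other, and no p is given for them. They were not corrected for GC content and transcript length, whose fitted log2 terms differed between genes. For Tsks these terms ran from -0.084 in WT 2 to 0.12 in cKO 1, and for Tssk2 from -0.091 in cKO 2 to 0.048 in WT 1.

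**Figure D4:**
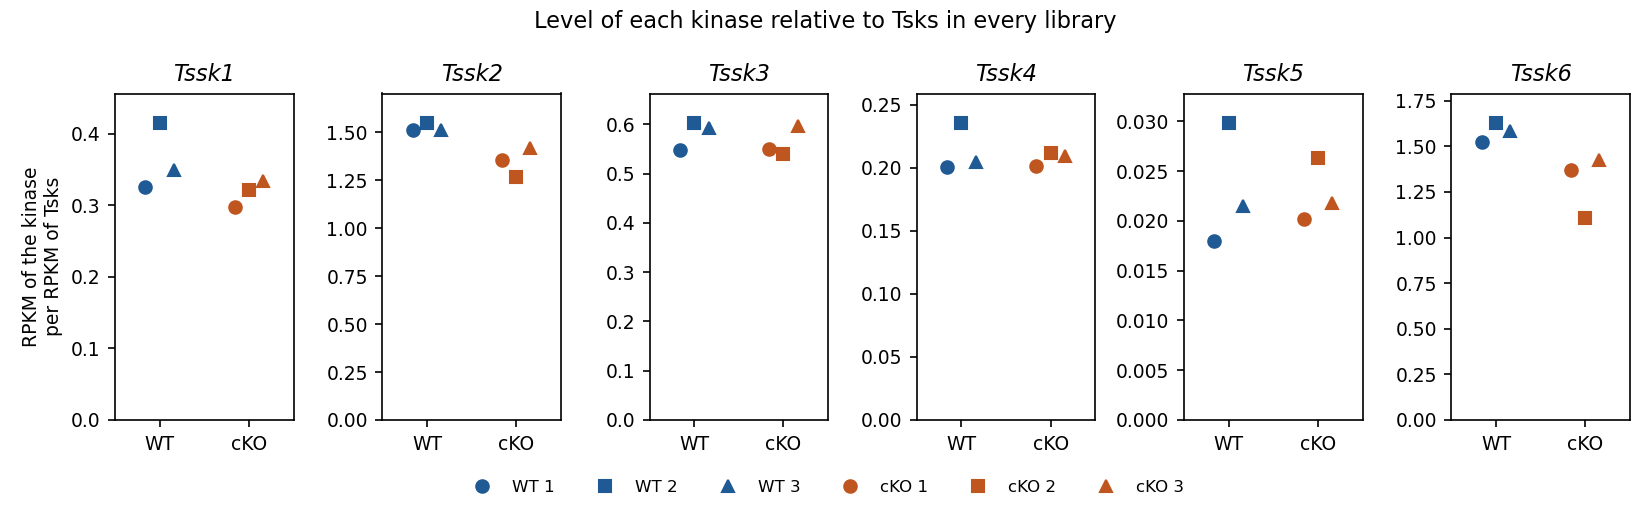
RPKM of each kinase divided by RPKM of Tsks in the same library, with GENCODE exon lengths, on axes that start at 0, 1 point a library. The ratios are not corrected for GC content. The 3 cKO points lie below the 3 WT points for Tssk2 (1.27 to 1.42 against 1.51 to 1.55) and Tssk6 (1.11 to 1.42 against 1.53 to 1.63), and the groups overlap for the other 4 kinases.

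The levels of spermatid markers were set beside these values. The summed level of the 15 elongating spermatid markers was 24145 to 26694 CPM in WT and 21796 to 25573 in cKO. It was lowest in cKO 2, the library with the lowest Tssk6, Tssk2 and Tssk3. Tssk1 was also lowest there, with nearly the same value in cKO 3. Tssk4 was lowest in cKO 3, Tssk5 in WT 1 and Tsks in WT 2. Of these markers, 10 of 15 had a log2 fold change below 0 (49.3% of all tested genes did), with a median of -0.07. The 15 round spermatid markers, Tcp11 and Zpbp2 among them, summed to 4417 to 4501 CPM in WT and 4268 to 4546 in cKO, with 12 of 15 below 0 and a median of -0.11. No gene of either list passed the edgeR test over all genes. With the correction for GC content and transcript length the medians were nearer to 0, at -0.016 for the elongating and -0.051 for the round spermatid markers, with 8 of 15 below 0 in each list. The elongating list also moved to -0.016 without WT replicate 3 and to -0.018 without cKO replicate 2, and to -0.12 without WT replicate 2, and the round list to -0.073 without cKO replicate 3. The part of these marker levels in the values of the kinases was not tested.

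Set against the elongating spermatid markers, Tssk6 was lower in every cKO library, with 22.2, 21.7 and 21.4 in WT and 20.8, 17.4 and 19.4 in cKO per 1000 CPM of the list. Tssk1 on that scale overlapped, at 13.1, 15.3 and 13.1 in WT and 12.5, 14.0 and 12.6 in cKO, and so did Tssk2, Tssk4, Tssk5 and Tsks. Tssk3 was on the other side without overlap, with 7.64, 7.71 and 7.66 in WT and 7.97, 8.09 and 7.77 in cKO. Of all tested genes, 16.8% had no overlap on that scale, 2.47% lower and 14.4% higher in cKO. Set against the round spermatid markers, Tssk1 (74.04, 83.9 and 77.5 against 70.3, 71.3 and 70.4) and Tssk6 (125, 119 and 127 against 117, 88.6 and 109) were lower in every cKO library. Tssk2, Tssk3, Tssk4, Tssk5 and Tsks overlapped there. The sum of the round list leans on Tcp11, its highest marker, with 1925 ± 132 CPM in WT and 1966 ± 132 in cKO (SD, n = 3 each). Tcp11 had a log2 fold change of 0.03, whereas most of that list was below 0. The share of all tested genes without overlap on this scale was 18.0%, with 5.97% lower and 12.1% higher.

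Markers of the other cells of the testis gave no call in any list. The summed levels of the spermatogonia, spermatocyte, Sertoli, Leydig, peritubular myoid and macrophage lists overlapped between the groups. The 5 endothelial markers summed to 39.2 to 40.4 CPM in WT and 41.2 to 50.3 in cKO without overlap. Their median log2 fold change was 0.25, and 0.038 with the correction for GC content and transcript length. All 10 Sertoli markers had a log2 fold change above 0, with a median of 0.10 (0.055 without cKO replicate 1 to 0.19 without cKO replicate 2). With WT replicate 3, cKO replicate 1 or cKO replicate 3 left out, 7 of the 10 were above 0. Of 7 macrophage markers 6 had a log2 fold change below 0, where 49.3% of all tested genes did. The macrophage median was -0.24 (-0.32 without WT replicate 1 to -0.13 without WT replicate 2). The part of these cells in the CPM of the kinases was not tested.

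The partners and reported substrates of the kinases were followed as a list of 12 genes. None passed the test over all genes. Of the 12, 2 had an unadjusted p under 0.05, 1 in each direction, against 13.9% of all tested genes. The groups did not overlap in 2 that were lower in cKO, Tsacc and Ppp1r11. Nor did they in 3 that were higher, Hsp90aa1 and Odf2 among them. Over all tested genes, 18.9% had groups without overlap (8.85% lower). Tsacc, the co-chaperone that activates Tssk6, had 95.9, 105 and 102 CPM in WT and 81.8, 77.4 and 92.2 CPM in cKO. Its groups did not overlap, and edgeR put the difference at -0.27 in log2 (SE 0.077, p 0.00473, adjusted p 0.288). That difference is close in size to that of Tssk6, but its lowest libraries were cKO 2 and cKO 1, whereas Tssk6 in cKO 1 was within the WT range.

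Hsp90aa1, an Hsp90 chaperone gene, lay on the other side, with 911, 858 and 857 CPM in WT and 935, 1016 and 952 in cKO, a log2 fold change of 0.14 (SE 0.065; edgeR adjusted p 0.352). Ppp1r11, an inhibitor of protein phosphatase 1, had a log2 fold change of -0.15 (SE 0.073; adjusted p 0.386). Odf2, the substrate of Tssk4, had 0.11 (SE 0.067; adjusted p 0.479), and Ppp1cc, the phosphatase catalytic subunit found with Tssk1 and Tsks, -0.06 (SE 0.066; adjusted p 0.715). The median of the list was -0.02, near that of all genes.

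Other kinases gave no call either. A list of 18 kinases held AMPK and AMPK-related kinases outside the TSSK branch, and Stk11, which is not of that family. Of these, 17 had a log2 fold change above 0, with a median of 0.13, the opposite side from Tssk1, Tssk2 and Tssk6. Without adjustment 5 were under 0.05 and higher, Mark4 (0.27) and Sik1 (0.25) among them, and Hunk was lower (-0.21). Over all tested genes, 7.33% were higher and 6.54% lower at such a p, and 49.3% had a log2 fold change below 0. The edgeR adjusted p was at least 0.288 for all 18. With the correction for GC content and transcript length their median was 0.03, with 13 of 18 above 0. Of 17 other kinase and phosphatase genes of spermatids and sperm, 12 were above 0 with a median of 0.04, and 3 were lower at an unadjusted p under 0.05: Dusp21 (-0.41), Aurkc (-0.25) and Ppp3r2 (-0.19). Sperm motility kinases, a multicopy family whose reads may be exchanged between copies, were low, with 5.14 to 9.88 CPM in a library summed over the 6 found, and 4 of the 6 could be tested. Smok3c had -0.24, Smok2b -0.16 and Smok2a -0.06 (edgeR adjusted p 0.689 to 0.936). Their list had a median of -0.11, which ran from -0.37 without WT replicate 1 to 0.053 without WT replicate 2 and was also above 0 without WT replicate 3 (0.024) and without cKO replicate 1 (0.015), so it has no direction.

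The structures in which Tssk1, Tssk2 and Tsks are found, the chromatoid body and the annulus region of the tail, were represented by 2 lists. Of 15 chromatoid body genes 13 were above 0, with a median of 0.12 (0.057 and 12 of 15 with the correction for GC content and transcript length). At an unadjusted p under 0.05 there were 4 higher and 1 lower, against 7.33% and 6.54% of all tested genes. Tdrd6, a scaffold of the chromatoid body, had 0.22 and Smg6 and Ddx6, factors of mRNA decay, 0.19 and 0.20, whereas Mael had -0.16 (edgeR adjusted p 0.306 to 0.350). Of 8 annulus and septin genes 4 were above and 4 below 0, with a median of 0.0066; the anion transporter Slc26a8 had the lowest p, with 0.16 (edgeR adjusted p 0.376), followed by Cby3 with -0.15 (0.581) and the septin Sept4 with 0.09 (0.594). Of 13 tested regulators of spermatid genes, Fhl5, the coactivator of Crem in testis, had -0.27 (SE 0.077; edgeR adjusted p 0.282), Rfx2 0.19 and Paip2 -0.16. Crem itself had -0.10 (adjusted p 0.551).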

How the data were processed

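The deposited values are raw counts of reads per gene, 1 table a library, in the layout of STAR's gene counts, with no normalisation. STAR, HTSeq, DESeq2 and mm10 are named in the submitters' processing notes; versions, annotation and read filters are not given in the sources used here. The counts of reads in the orientation opposite to the gene were used, which held 96.0% to 96.2% of the stranded reads. Lines that name no gene held 14.8% to 16.7% of the reads and stayed out of library sizes and tests. Loci, exon lengths and transcript sequences came from GENCODE M21 on GRCm38, the assembly of mm10, which matched 52147 of 53700 identifiers.

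cKO was compared with WT in edgeR 4.0.16 (R 4.3.3): genes were kept by filterByExpr (minimum count 10), libraries scaled by TMM, and genotype, the 1 term of the model, tested by the quasi-likelihood F test. The p-values of the 21902 genes were adjusted after Benjamini and Hochberg, with a threshold of 0.05. CPM use TMM-scaled library sizes. Standard errors and 95% limits come from the F statistic. Coding sequences were aligned globally with Biopython 1.88 (match 2, mismatch -1, gap opening -5, extension -0.5). Ratios, shares and lists are described without a test. The procedure was tested on simulated data. Labels call the mice biological replicates.

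The members and lists were chosen with earlier results of these data known. Genes were named by a written rule: the members and Msl3, the genes next to each member, the 3 genes of each pathway list with the lowest p, and the 5 genes with at least 10 mean CPM whose profile over the 6 libraries is nearest to the members' mean. Genes named for their role (Ppp1cc, Odf2, Crem, Mael and the overlapping Ndufa13) were added after their values were seen. So was the class of single-exon genes. Marker lists are given by counts, with the members of highest mean level as examples. The alternatives were RLE scaling, library totals, 2 other filters, a replicate block, unstranded counts, a robust prior, DESeq2 1.42.0 with and without its filter on low means, a threshold of 0.1 and each library left out. A loess correction for GC content and transcript length (span 0.3) and the RefSeq exon length were added after seeing the data.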

Additional observations from a re-analysis of the deposited data

How the results depend on the processing

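The 16 alternative fits kept the log2 fold changes of Tssk1 (-0.24 to -0.14), Tssk2 (-0.25 to -0.11), Tssk6 (-0.38 to -0.14) and Msl3 (-0.18 to -0.04) below 0, and none of these genes but Tssk6 passed the threshold in any of them. Tssk6 passed without a filter on low counts (-0.27) and without cKO replicate 1 (-0.38), the settings in which 1 of the 7 genes was called. With 1 library left out the number called was thus 0 to 1, and the log2 fold change of Tssk6 -0.38 to -0.14. The other 4 genes changed sign. With the correction for GC content and transcript length Tssk3 was at 0.022, Tssk4 at 0.012 and Tsks at -0.014. In that fit Tssk1 was at -0.24, a value that rests on its GENCODE length, and Tssk2 at -0.12. Tsks was at -0.000495 with at least 10 reads required in every library, at -0.019 with library totals alone and at -0.00148 without a filter. With 1 library left out, values ran from -0.096 to 0.010 for Tssk3, from -0.080 to 0.0096 for Tssk4, from -0.12 to 0.15 for Tssk5 and from -0.066 to 0.055 for Tsks. The median of the 7 was below 0 in all 16 fits, from -0.12 to -0.014. The causes were not tested. With the RefSeq exon length, Tssk1 in WT was at 242 RPKM in place of 94.8.

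The number of genes called over the whole table was 4 as reported, 209 with DESeq2 (98 higher, 111 lower), 117 with DESeq2 without its filter on low means, 757 without a filter on low counts, 2 with unstranded counts, and 1 to 628 with 1 library left out (116 without WT replicate 1, 628 without cKO replicate 1). DESeq2 called none of the 7 genes. Of the genes of the pathway and marker lists, 0 were called as reported, 6 with DESeq2, 3 with DESeq2 without its filter on low means, 10 without a filter on low counts and 0 to 6 with 1 library left out. Over the 16 fits the median of the TSSK partners ran from -0.062 to 0.021, of the other spermatid kinases and phosphatases from 0.0017 to 0.062, of the annulus genes from -0.021 to 0.018 and of the regulators from -0.037 to 0.085. The cause of these shifts was not tested.

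Same-numbered WT and cKO libraries correlated at 0.35, 0.26 and -0.05 in their deviations from the group means. Different-numbered ones ran from -0.34 to 0.11, so 0.35 and 0.26 were above all of them. Deviations from a group mean cancel within the group, so a positive correlation pushes others down. The different-numbered values are thus no independent baseline, and whether the mice were paired cannot be decided from them. The labels do not say whether equal numbers mean pairs, and the main fit did not take them as such. With the replicate number as a block, 49 genes were called and none of the 7; Tssk6 was at -0.28 (edgeR adjusted p 0.0978) and Tssk5 at 0.0059. With 3 mice a group, the values do not exclude a difference of Tssk3, Tssk4 or Tsks inside the 95% limits given for it. These limits are not a detection limit of the adjusted test: Tssk6, at 83.2% of WT, was not called in the main fit.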

Other observations

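The genes next to the kinases on the chromosome gave no call. Fam229a, 167 bases from Tssk3, had 209.7, 197 and 197 CPM in WT and 205, 156 and 168 CPM in cKO, a log2 fold change of -0.19 (SE 0.092; edgeR adjusted p 0.383), whereas Tssk3 itself was at -0.04. Dgcr2 and Ess2, on either side of Tssk2, were at 0.07 and 0.05, whereas Tssk1 and Tssk2 were at -0.18 and -0.17. Gatad2a, next to Tssk6, was at 0.14 and Ndufa13, which overlaps Tssk6 on the other strand, at -0.14 (edgeR adjusted p 0.368 and 0.559). Ndufa13 shared with Tssk6 a lowest value in cKO 2, at 81.0 CPM, and a value of 106 in cKO 1 within the WT range of 93.4 to 107. Mroh1, beside Tssk5, was at 0.16, Hgh1 at -0.0087, Bsdc1, beside Tssk3, at 0.02, and Ap2a1 and Cpt1c, beside Tsks, at 0.10 and 0.05. The low Cilp2 and Gm49747 were at -0.16 and 0.16, and Gm20518 and Gm49299 had too few reads to be tested.

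The 3 members with a single exon, Tssk1, Tssk2 and Tssk6, had the 3 lowest log2 fold changes of the 7, which was noticed after the values were seen. All 502 tested coding genes with a single exon had a median of -0.02, with 54.2% below 0 and 49 lower and 14 higher at an unadjusted p under 0.05. The 15860 other coding genes had a median of 0.03, with 42.6% below 0, 823 lower and 1521 higher. No gene of either class passed the test over all genes. GC content did not follow the same split: the longest transcript of Tssk6 had 64.8% and that of Tsks 62.0%, more than 99.5% and 98.1% of 16360 coding genes, while the other 5 lay at 52.4% to 54.4%.

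The mean profile of the 7 genes over the libraries was 0.03, 0.05 and 0.07 in WT and 0.06, -0.11 and -0.10 in cKO, in log2 CPM about each gene's own mean. cKO 1 thus lay with the WT libraries. Of 10044 other genes with at least 10 CPM, the nearest profiles were those of Mdh1b, Ndufaf7, Ccdc103, BC031181 and Chmp1b, with root mean square differences of 0.014 to 0.018. The members lay at 0.044 (Tssk4) to 0.19 (Tssk5) from this mean, with Tssk6 at 0.14. These distances cannot be set against those of the 5 genes, which were picked as the smallest.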
